A study of Mus musculus with 7 samples.

Results

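The glandular kallikreins are secreted serine proteases, and 8 of their genes are described here in the mouse testis: Klk1, Klk1b5, Klk1b9, Klk1b21, Klk1b22, Klk1b24, Klk1b26 and Klk1b27. The genes were chosen from earlier results of the same knockout against wild type comparison, so their differences between genotypes are given as a description, with no test. They were measured by 11 of the 45037 probe sets on the array that are not controls. Of these, 9 probe sets carry 1 gene symbol and cover 5 genes, with 4 probe sets for Klk1, 2 for Klk1b5 and 1 each for Klk1b21, Klk1b24 and Klk1b27. The other 3 genes were seen only through 2 shared probe sets, 1 listed for Klk1b9 and Klk1b22 and 1 listed for Klk1b26 and Egfbp2. RefSeq gives Egfbp2 as a synonym of Klk1b26.

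RNA was taken from the whole testis of adult mice, 15 to 20 weeks old, and hybridised to Affymetrix expression arrays, in which a probe set is a group of short oligonucleotides for 1 transcript. Phf13 knockout mice (n = 3 arrays) were set against wild type mice (n = 4 arrays). Phf13 codes for a chromatin protein with a PHD finger, a domain that reads methylated histone H3. The labels give no strain, do not describe the deleted stretch or say whether the deletion is present in every cell, and do not state that each array is a separate animal, so the spread between arrays may be partly technical. In whole tissue, fewer cells of a type and less RNA per cell cannot be told apart.

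The true tissue kallikrein Klk1 cleaves kininogen to release kinins, short peptides that act on bradykinin receptors to widen vessels and raise their permeability. In the mouse the family expanded into a tandem cluster of closely related Klk1b genes, many of them known from the salivary gland, where some products bind or process growth factors. Klk1b21, Klk1b24 and Klk1b27 are also known from the Leydig cells of the mouse testis, the interstitial cells that make testosterone. Because the genes are so alike, signals of single members are uncertain: a probe set whose name ends in _x_at holds probes that may match other transcripts, and cross-hybridisation among the kallikreins was not tested.

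All 8 genes lie on chromosome 7, with Klk1b9 at one end of the members in RefSeq's gene order and Klk1b5 next to Klk1 at the other. The stretches upstream of 4 members are shown because these carry the larger differences among probe sets with 1 symbol and show how alike the genes are ahead of their transcription starts. The sequences are RefSeq's, from assembly GRCm38.p6, all on the + strand and written 5′ to 3′. The array files name no assembly. Each stretch is 100 bases long and is placed on the run GGTGACCTAGGG, which is 12 bases long and occurs upstream of 7 of the 8 genes. Capitals mark TGACCT, the reverse complement of AGGTCA, the half-site that many nuclear receptors recognise. The stretches lie at chr7:44225229-44225328 for Klk1, chr7:44102117-44102216 for Klk1b21, chr7:44188026-44188125 for Klk1b24 and chr7:44052092-44052191 for Klk1b27. Because they were placed on a shared run, part of their likeness follows from the placing. Their distances differ, beginning 131 bases before the annotated start for Klk1 and 210 for Klk1b24. The Klk1b21 stretch lies inside RefSeq's span of that gene, chr7:44004616-44106583, ahead of an annotated start within it.
Klk1: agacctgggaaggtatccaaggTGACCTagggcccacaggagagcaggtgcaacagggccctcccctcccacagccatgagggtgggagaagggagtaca
Klk1b21: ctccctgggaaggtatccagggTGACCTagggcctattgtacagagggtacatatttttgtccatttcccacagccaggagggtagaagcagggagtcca
Klk1b24: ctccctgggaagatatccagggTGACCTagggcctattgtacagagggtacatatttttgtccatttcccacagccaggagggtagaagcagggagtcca
Klk1b27: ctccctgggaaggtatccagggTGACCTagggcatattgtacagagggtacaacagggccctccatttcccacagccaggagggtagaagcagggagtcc
The Klk1b21 and Klk1b24 stretches were 99.0% identical over their aligned bases. Klk1b27 was 91.9% identical to Klk1b21 and 90.9% to Klk1b24. Klk1 was less like these 3, at 76.3% with Klk1b21, 75.3% with Klk1b24 and 79.8% with Klk1b27.

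**Figure D1:**
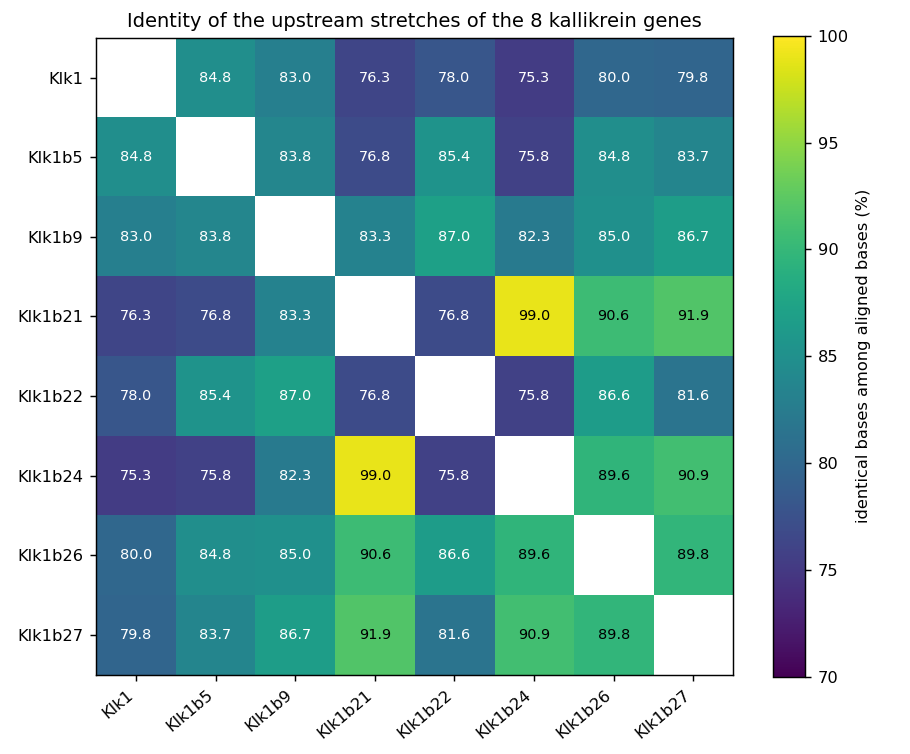
Percentage of identical bases between the aligned upstream stretches of each pair of the 8 kallikrein genes, as a colour scale with the value printed in each square. The lowest value is 75.3% for Klk1 with Klk1b24 and the highest is 99.0% for Klk1b21 with Klk1b24.

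Short motifs were searched on both strands in windows from 250 bases before to 50 bases after each annotated start, in the 8 members and in all 32851 windows of the RefSeq table. AGGTCA was found in 7 of the 8 members, all but Klk1b26, and in 16.3% of all windows. The run shared by 7 members holds its reverse complement, so this count follows from the run and is not a separate result. Klk1b26 differs from the shared run by 1 mismatch. TTTAAA, an AT-rich run like the core of many promoters, was found in 7 of the 8 members, all but Klk1, and in 13.2% of all windows. CAAGGTCA, which contains AGGTCA and is the extended half-site known for the steroidogenic regulator Nr5a1, was found in Klk1 and Klk1b21 and in 1.56% of all windows. The stretches printed above do not hold it, and their capitals mark a different site. AGAACA, a half-site of the androgen receptor, was found only in Klk1b24 among the members and in 19.0% of all windows, and the full androgen response element in 0 of the 8 members and 0.0639% of all windows. The members are closely alike in sequence, so their windows are not independent, and their counts cannot be weighed against the shares over all windows. These matches describe letters in the windows and were not tested as binding sites.

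Arrays were of like scale, with median log2 signals of 5.01 to 5.08. Phf13 itself was measured by 1455175_at, with log2 signals of 6.04, 5.83 and 5.71 in knockout arrays, against 8.66, 8.64, 8.73 and 8.54 in wild type arrays. It fell by 2.78 on the log2 scale (SE 0.09, limma adjusted p = 2.03e-05). Over all probe sets 3833 passed limma's adjusted p of 0.05, which is 8.51%, and 2527 of these were higher in knockout testis (5.61% of those tested). Each array's title starts with a number that the labels do not explain. By its first 4 digits the arrays fall into 3 title-number groups that each hold both genotypes. Knockout 1 shares a group with wild type 1. Knockout 2 is grouped with wild type 2 and wild type 3, while the last group joins knockout 3 to wild type 4.

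Most kallikrein signals were higher in the knockout arrays, by up to 2.32-fold. The difference was above 0 for 10 of the 11 probe sets and its median was 0.77 on the log2 scale, beside a median of −0.028 over all probe sets. For 6 of the 11 every knockout array lay above every wild type array, which holds for 10.6% of all probe sets. Past limma's adjusted p of 0.05 lay 4 of the 11, all higher: the probe sets 1415837_at and 1448107_x_at of Klk1, that of Klk1b27 and the one shared by Klk1b9 and Klk1b22. Nothing is read from these counts beside the 8.51% and 10.6%, since the genes were chosen on this contrast. The counts also rested on single arrays: 0 of the 11 passed without knockout 1, without knockout 3, without wild type 1 or without wild type 2, 2 passed without knockout 2 or without wild type 4, and 5 passed without wild type 3. With title number as a block 3 of the 11 passed, beside 2662 of all 45037 probe sets. These were those of Klk1b21, Klk1b27 and Klk1b9 with Klk1b22, and no Klk1 probe set passed.

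**Figure D2:**
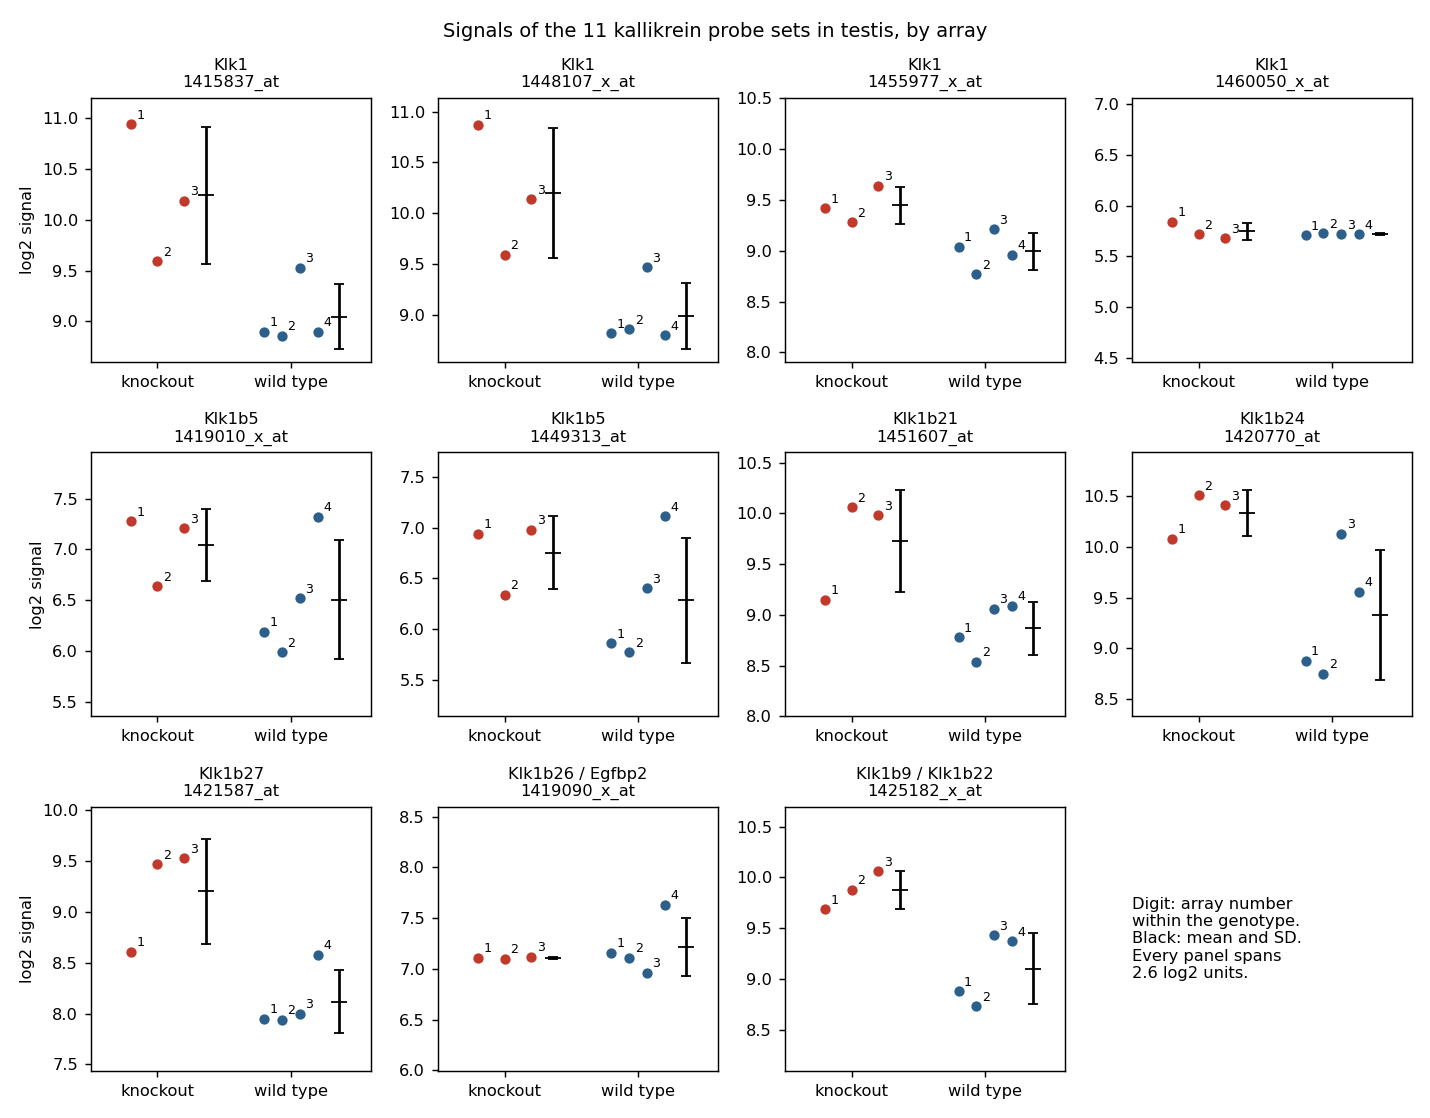
Log2 signal of each of the 11 kallikrein probe sets in the 3 knockout arrays (red) and 4 wild type arrays (blue), with the array number beside each point and the mean and SD in black; every panel spans the same number of log2 units. In 6 panels all knockout points lie above all wild type points, and knockout 1 is the highest knockout array for Klk1 at 1415837_at and the lowest for Klk1b21, Klk1b24 and Klk1b27.

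Klk1, the kinin-releasing member, was read by 4 probe sets that did not give 1 answer. At 1415837_at the log2 signal was 10.94, 9.59 and 10.19 in knockout arrays, against 8.90, 8.86, 9.53 and 8.90 in wild type arrays. The groups did not overlap, but the gap between the lowest knockout array, knockout 2, and the highest wild type array, wild type 3, was only 0.06. The means were 10.24 ± 0.68 (SD, n = 3) in knockout testis and 9.05 ± 0.32 (SD, n = 4) in wild type testis, a difference of 1.19 (SE 0.30) or 2.29-fold. Knockout 1 was the highest array, followed by knockout 3. Within the 3 title-number groups the difference was 2.04, 0.39 and 1.29, and with 1 array left out it ran from 0.84 without knockout 1 to 1.52 without knockout 2.

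A second Klk1 probe set, 1448107_x_at, which the annotation ties to the same transcript record, gave nearly the same picture. Its log2 signals were 10.87, 9.59 and 10.14 in knockout arrays, against 8.82, 8.86, 9.47 and 8.80 in wild type arrays. Knockout 1 and wild type 3 again stood highest within their genotypes and the groups did not overlap. The difference was 1.21 (SE 0.28), or 2.32-fold. Since both probe sets read 1 transcript, they are not separate evidence on Klk1.

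The other pair of Klk1 probe sets showed smaller differences. At 1455977_x_at the log2 signals were 9.42, 9.28 and 9.64 in knockout arrays, against 9.04, 8.77, 9.21 and 8.96 in wild type arrays. The groups did not overlap, and here knockout 3 rather than knockout 1 was the highest array. The difference was 0.45 (SE 0.12) or 1.37-fold, and 0.38, 0.29 and 0.68 within the title-number groups. At 1460050_x_at the log2 signals were 5.84, 5.72 and 5.68 in knockout arrays, against 5.71, 5.73, 5.72 and 5.72 in wild type arrays. These overlapped, with a difference of 0.03 (SE 0.06), and knockout 1 was the only array that stood off from the others. Which of the 4 probe sets follows Klk1 alone was not tested.

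Klk1b21, Klk1b24 and Klk1b27 are the members known from Leydig cells. Klk1b21 had log2 signals of 9.15, 10.06 and 9.98 in knockout arrays, against 8.78, 8.54, 9.06 and 9.09 in wild type arrays. Knockout 2 and knockout 3 were high, while knockout 1 lay only 0.06 above wild type 4, so the groups did not overlap by a narrow gap. The means were 9.73 ± 0.50 (SD, n = 3) in knockout testis and 8.87 ± 0.26 (SD, n = 4) in wild type testis, a difference of 0.86 (SE 0.23) or 1.82-fold. Within the title-number groups it came to 0.37, 1.26 and 0.89. Without knockout 1 it was 1.15.

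Klk1b27, like Klk1b21, had its lowest knockout signal in knockout 1. Its log2 signals were 8.61, 9.47 and 9.53 in knockout arrays, against 7.95, 7.94, 8.0 and 8.58 in wild type arrays. Wild type 1, wild type 2 and wild type 3 lay close together, wild type 4 stood above them, and knockout 1 cleared wild type 4 by only 0.03. The means were 9.20 ± 0.51 (SD, n = 3) in knockout testis and 8.12 ± 0.31 (SD, n = 4) in wild type testis, a difference of 1.09 (SE 0.24) or 2.12-fold. Within the title-number groups it came to 0.66, 1.5 and 0.95, and without knockout 1 to 1.38.

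Klk1b24 differed from both in its wild type arrays. Its log2 signals were 10.08, 10.51 and 10.41 in knockout arrays, against 8.88, 8.75, 10.13 and 9.56 in wild type arrays. The knockout arrays were close together and the wild type arrays were spread over 1.38 log2 units, with wild type 3 above knockout 1, so the groups overlapped. The means were 10.33 ± 0.23 (SD, n = 3) in knockout testis and 9.33 ± 0.64 (SD, n = 4) in wild type testis, a difference of 1.00 (SE 0.31) or 2.00-fold. Within the title-number groups it came to 1.20, 1.07 and 0.85. The middle value averages unlike arrays, since knockout 2 lay 1.76 above wild type 2 and 0.38 above wild type 3.

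Klk1b5, a further member of the cluster, was read by 2 probe sets that moved together from array to array. At 1419010_x_at the log2 signals were 7.28, 6.64 and 7.21 in knockout arrays, against 6.19, 5.99, 6.52 and 7.32 in wild type arrays. At 1449313_at they were 6.94, 6.34 and 6.98 in knockout arrays, against 5.86, 5.77, 6.40 and 7.11 in wild type arrays. Wild type 4 was the highest of all 7 arrays at both, so the groups overlapped. The differences were 0.54 (SE 0.30) and 0.47 (SE 0.31), less than the SD of the wild type arrays, which was 0.59 and 0.62. Without wild type 4 they were 0.81 and 0.74, and at 1449313_at the difference was 0.30 without wild type 2. Within the title-number group of knockout 3 and wild type 4 the sign turned, at −0.11 and −0.13.

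The shared probe sets read the members known as epidermal growth factor binding proteins, and these cannot be separated where 2 symbols share the signal. The probe set 1425182_x_at, shared by Klk1b9 and Klk1b22, had log2 signals of 9.69, 9.88 and 10.06 in knockout arrays, against 8.88, 8.73, 9.43 and 9.37 in wild type arrays. Its groups did not overlap, with a gap of 0.26, the widest among the kallikrein probe sets. The means were 9.88 ± 0.19 (SD, n = 3) in knockout testis and 9.10 ± 0.35 (SD, n = 4) in wild type testis, a difference of 0.77 (SE 0.18) or 1.71-fold. Within the title-number groups it came to 0.81, 0.80 and 0.69, and it ran from 0.65 to 0.88 with 1 array left out. The 0.80 averages unlike arrays, since knockout 2 lay 1.15 above wild type 2 and 0.45 above wild type 3.

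Klk1b26, through the probe set 1419090_x_at shared with its synonym Egfbp2, did not follow the others. Its log2 signals were 7.11, 7.10 and 7.12 in knockout arrays, against 7.16, 7.11, 6.96 and 7.63 in wild type arrays. The knockout arrays lay inside the wild type range and wild type 4 stood alone above. The difference was −0.11 (SE 0.14), and 0.03 without wild type 4.

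**Figure D3:**
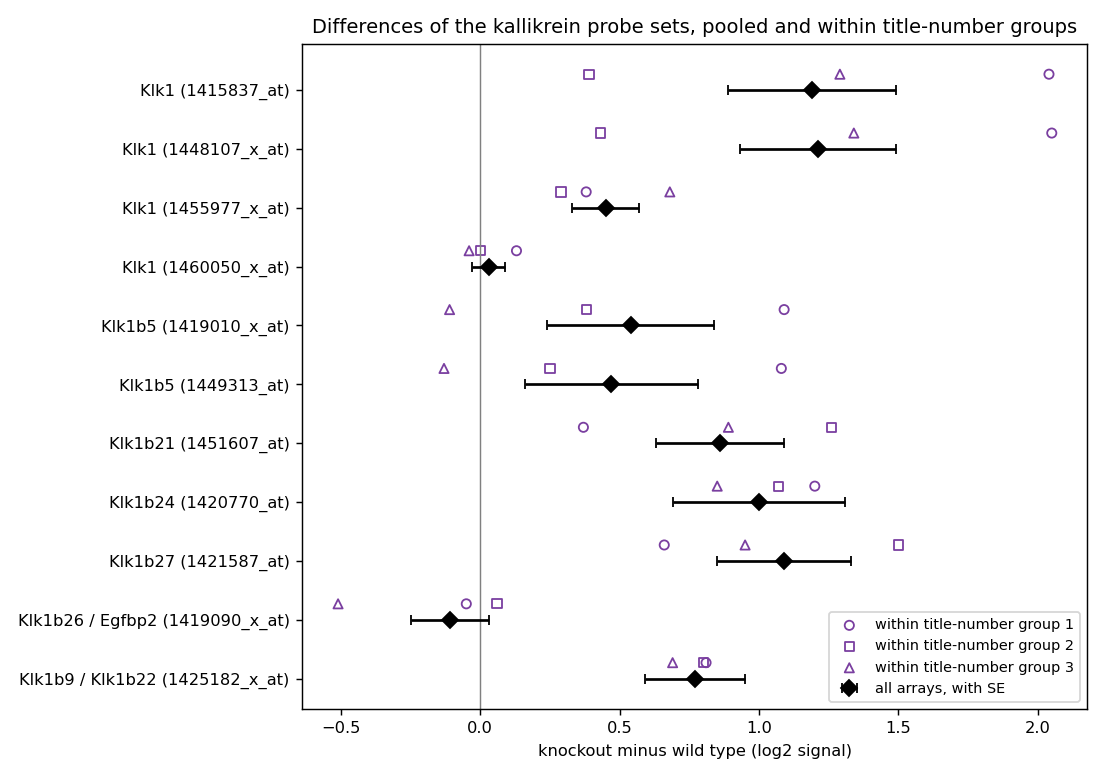
Knockout minus wild type difference in log2 signal for each kallikrein probe set, with black diamonds for all arrays and bars of 1 SE, and open symbols for the difference within each of the 3 title-number groups. The open symbols of Klk1 at 1415837_at run from 0.39 to 2.04 and those of the probe set shared by Klk1b9 and Klk1b22 from 0.69 to 0.81. The symbol of the group with knockout 2 averages over wild type 2 and wild type 3, so it hides the spread between them.

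The kallikreins varied more between arrays of 1 genotype than most probe sets of like brightness did. The within-genotype SD of Klk1 at 1415837_at was 0.50 log2 units, at percentile 99.7 among probe sets whose mean signal lay within 0.5 log2 units of its own. For Klk1b24 it was 0.52 (percentile 99.8), for Klk1b27 0.40 (percentile 99.0), for Klk1b21 0.38 (percentile 98.9) and for Klk1b5 at 1449313_at 0.53 (percentile 99.0). The probe set of Klk1b9 and Klk1b22 had an SD of 0.30 (percentile 98.0) and that of Klk1b26 0.22 (percentile 90.8). The exception was the Klk1 probe set 1460050_x_at, with an SD of 0.05 (percentile 5.82). So wide a spread was not particular to these genes. Among Leydig cell markers the percentile was 99.6 for Star, 99.5 for Hsd3b1, 98.9 for Hsd17b3 and 98.5 for Cyp17a1. It was lower for Scarb1 (88.1), Nr5a1 (87.6), Tspo (72.3) and Cyp11a1 (51.6). For Klk1b8, a bright kallikrein outside the 8 genes, it was 97.2.

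The deviations of single arrays from their genotype's mean did not run the same way in all members. Correlations of these deviations over the 7 arrays are descriptions only, because the points share arrays and sum to 0 within each genotype. Klk1b21 and Klk1b27 moved together (r = 0.88), as did Klk1b21 and Klk1b24 (r = 0.68) and Klk1b24 and the probe set of Klk1b9 and Klk1b22 (r = 0.92). Klk1 at 1415837_at went against Klk1b27 (r = −0.67) and Klk1b21 (r = −0.53), and had r = 0.18 with Klk1b24. At the Klk1 probe set 1455977_x_at the opposite movement was not seen, with r = 0.07 for Klk1b27, 0.33 for Klk1b21 and 0.57 for Klk1b24. Knockout 1 was the highest knockout array for Klk1 at 1415837_at, 1448107_x_at and 1460050_x_at, though not at 1455977_x_at, and the lowest for Klk1b21, Klk1b24 and Klk1b27. Wild type 3 was the highest wild type array for Klk1 at every probe set but 1460050_x_at, and for Klk1b24 and the probe set of Klk1b9 and Klk1b22, and wild type 4 was the highest for Klk1b5, Klk1b21, Klk1b26 and Klk1b27. The pair of Klk1b5 probe sets had r = 0.99 and the pair 1415837_at and 1448107_x_at of Klk1 had r = 1.00. The other Klk1 probe sets followed less closely: 1415837_at had r = 0.50 with 1455977_x_at and 0.65 with 1460050_x_at, and the last pair had r = −0.28 with each other.

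Among 20188 probe sets of other genes with a signal above the median, those whose deviations were most like Klk1 at 1415837_at were Atf6 (r = 0.988), Grin2d (r = 0.985), Pbrm1 (r = 0.984), Gapvd1 (r = 0.982) and Htr3a (r = 0.980). With 7 arrays and so many candidates, values of this size are a ranking only. None of these 5 passed limma's adjusted p of 0.05 between genotypes. Their differences ran from −0.24 for Grin2d to 0.12 for Pbrm1.

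**Figure D4:**
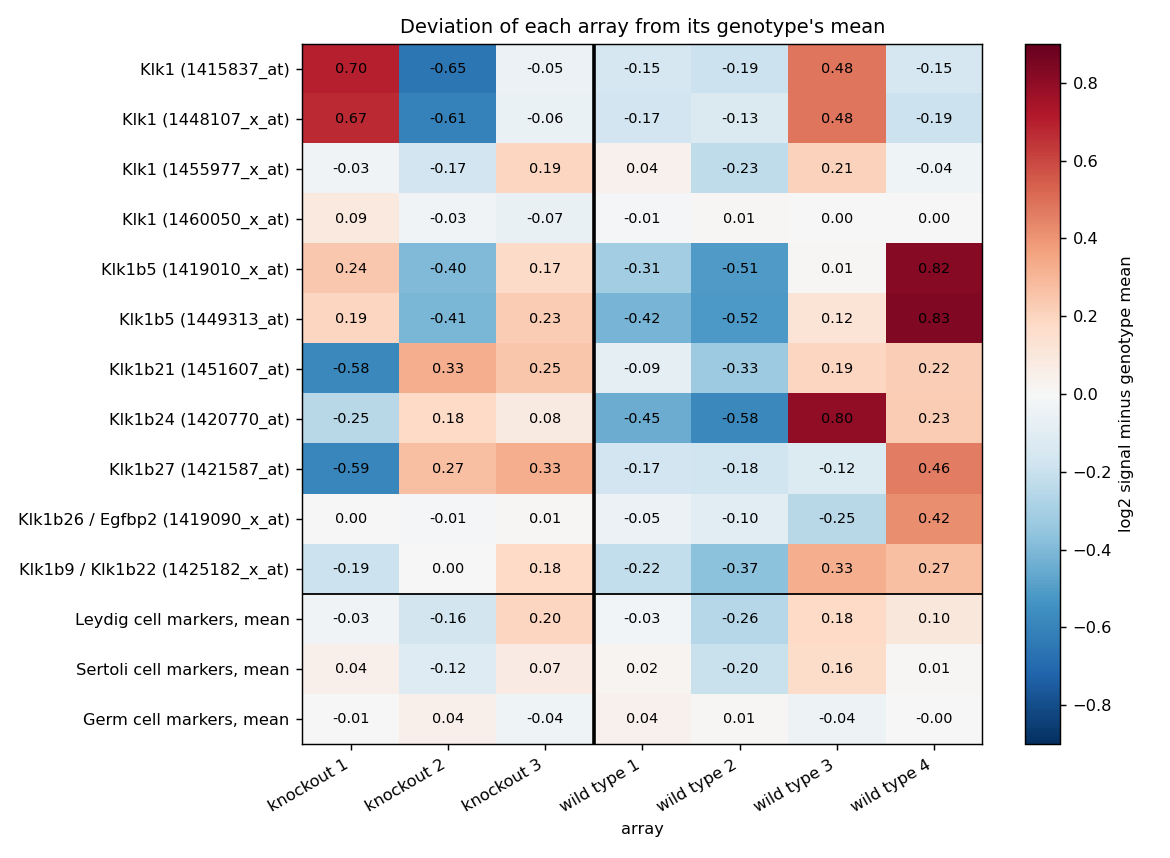
Deviation of each array's log2 signal from its genotype's mean, for the 11 kallikrein probe sets and for the mean of 3 marker lists, with red above the mean and blue below and the value printed in each square. Knockout 1 deviates by 0.70 for Klk1 at 1415837_at, by −0.59 for Klk1b27 and by −0.58 for Klk1b21.

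Markers of the somatic cells of the testis were also higher in the knockout arrays, and their values are given beside those of the kallikreins. Of 8 measured Leydig cell markers, of 11 listed, 4 rose and 0 fell by limma's adjusted p of 0.05, and 7 were higher and 0 lower at an unadjusted p under 0.05. Over all genes, read by their brightest probe set, 7.37% rose and 4.64% fell, and 15.4% were higher and 18.3% lower at an unadjusted p under 0.05. Their mean log2 signal ran from 9.04 to 9.40 in knockout arrays, against from 8.33 to 8.77 in wild type arrays, and the median difference was 0.62. All 8 had a signal above the median of all probe sets. Of the kallikreins, Klk1b21 differed by 0.86, Klk1b24 by 1.00 and Klk1b27 by 1.09. The deviations of the Leydig list mean had r = 0.67 with Klk1b24, 0.46 with Klk1b21, 0.32 with Klk1b27, 0.41 with Klk1 at 1415837_at and 0.92 with Klk1 at 1455977_x_at. They also had r = 0.91 with the Sertoli cell list mean. That mean in turn had r = 0.62 with Klk1b24, 0.21 with Klk1b21 and −0.04 with Klk1b27. With Klk1 it had r = 0.65 at 1415837_at and 0.94 at 1455977_x_at. Whether the kallikreins follow 1 of these lists more than the other was not tested. Of 10 measured Sertoli cell markers, of 12 listed, 8 rose and 0 fell (9 higher and 0 lower at an unadjusted p under 0.05), with means of 8.02 to 8.21 in knockout arrays, against 7.38 to 7.74 in wild type arrays. Of 10 germ cell markers 0 rose and 0 fell in limma's test (0 higher and 1 lower at an unadjusted p under 0.05), with means of 12.22 to 12.30 in knockout arrays, against 12.26 to 12.34 in wild type arrays. The median difference of the germ cell list was −0.06. Its genes Prm1, Prm2, Tnp1, Tnp2 and Ldhc lay near the top of the signal range. Whether signals there can still follow a change was not tested, so the list cannot show that germ cell RNA was unchanged. The part of cell makeup in the kallikrein differences was not tested.

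Markers of other organs that make kallikreins or lie near the testis were mixed in brightness. Salivary gland markers, 6 measured of 8 listed, had mean log2 signals of 3.98 to 4.28 in knockout arrays, against 3.75 to 4.18 in wild type arrays, and 0 rose or fell in limma's test (1 higher at an unadjusted p under 0.05). The secretory genes Smgc, Dcpp1, Prol1 and Bpifa2 stayed at 3.48 or below in every array, while 2 of the 6, Egf and Amy1, had a mean above the median of all probe sets. Egf ran from 4.87 to 5.31 in knockout arrays and from 4.73 to 5.72 in wild type arrays. The amylase gene Amy1 was brighter, with 8.32, 7.69 and 8.48 in knockout arrays, against 6.84, 6.32, 7.26 and 8.13 in wild type arrays, a difference of 1.03 (SE 0.38) that did not pass the test. Pancreas markers (5 of 7 measured, means of 4.74 to 4.93 in knockout and 4.83 to 4.96 in wild type arrays) and those of seminal vesicle and prostate (6 of 7, means of 3.17 to 3.24 in knockout and 3.14 to 3.24 in wild type arrays) gave 0 calls too, with 0 of the pancreas markers and 1 higher and 1 lower of the others at an unadjusted p under 0.05. Epididymis markers (6 of 7) had means of 3.87 to 4.68 in knockout arrays, against 4.01 to 4.38 in wild type arrays, with 0 calls, also at an unadjusted p under 0.05. The brightest gene of each of these 3 lists was above the median: Prss2 of the pancreas averaged 6.20 in knockout and 6.29 in wild type arrays, Svs5 of the seminal vesicle 6.40 in knockout and 5.97 in wild type arrays (limma adjusted p = 0.0953), and Rnase10 of the epididymis 5.49 in knockout and 5.91 in wild type arrays. Adam7, also of the epididymis list, stood at 7.07 in knockout 2 and 5.20 in wild type 3, against 3.49 or less in the other 5 arrays.

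The remaining kallikreins of the mouse passed the test about as often as all genes did. Of 18 listed, 14 were measured by a probe set with 1 symbol, and by limma's adjusted p of 0.05 1 rose, 0 fell and 13 did not pass, where 7.37% of all genes rose and 4.64% fell. At an unadjusted p under 0.05, 2 were higher and 0 lower, against 15.4% and 18.3% of all genes. Their median difference was −0.09, and 3 of the 14 had a signal above the median of all probe sets, so most were dim. Klk1b16, another gene of the Klk1b cluster, rose by 0.85 (SE 0.21, limma adjusted p = 0.0465), with log2 signals of 6.37, 6.98 and 7.09 in knockout arrays, against 5.70, 5.68, 6.09 and 6.37 in wild type arrays. Knockout 1 and wild type 4 were level there, and with 1 array left out Klk1b16 passed only without wild type 4. Its difference ran from 0.72 to 1.08 in these fits, and 12 to 2964 of all probe sets passed in them. Klk1b8, a bright member of the cluster, had 9.23, 9.45 and 9.58 in knockout arrays, against 9.56, 9.70, 9.19 and 9.85 in wild type arrays. Its difference was −0.16 (SE 0.15), and the groups overlapped. Klk1b1 differed by 0.32 (SE 0.14, limma adjusted p = 0.177) and Klk8 by −0.16.

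The kinin system includes the kininogen genes, which code for the substrate of Klk1, the bradykinin receptors and the peptidases that break kinins down. The list also holds Klkb1 and F12, which are none of these. Of 14 listed genes 13 were measured, and 1 rose, 1 fell and 11 did not pass, with a median difference of −0.10. These shares are near those over all genes, of which 7.37% rose and 4.64% fell. At an unadjusted p under 0.05, 3 were higher and 3 lower, where 15.4% and 18.3% of all genes were. Mme, the kinin-degrading membrane peptidase neprilysin, rose by 1.53 (SE 0.15, limma adjusted p = 0.0131), and its other probe set by 0.95 (limma adjusted p = 0.0156). Bdkrb2, the B2 bradykinin receptor, fell by 0.41 (SE 0.07, limma adjusted p = 0.0166). Its mean log2 signals of 3.70 in knockout and 4.11 in wild type arrays were below the array medians, and its other probe set did not pass (−0.19, limma adjusted p = 0.129). Among the uncalled genes of highest signal, the peptidase genes Xpnpep1, Ace and Cpd differed by 0.29, −0.21 and 0.04. With 1 array left out, 0 to 4 genes of the list passed, with 0 without knockout 1, knockout 3 or wild type 1 and 4 without knockout 2. Over all probe sets only 13, 12 and 20 passed in those fits with 0 calls, and 2964 passed without knockout 2.

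Inhibitors and growth factor partners of kallikreins were measured for 7 of 12 listed genes, of which 2 rose, 0 fell and 5 did not pass in limma's test, with a median difference of 0.21. Over all genes 7.37% rose and 4.64% fell. At an unadjusted p under 0.05, 4 were higher and 1 lower, where 15.4% and 18.3% of all genes were. Serpina5, the protein C inhibitor, which also binds tissue kallikrein, rose by 1.12 (SE 0.16, limma adjusted p = 0.0156). Its log2 signals were 9.85, 9.47 and 9.98 in knockout arrays, against 8.62, 8.28, 8.84 and 8.83 in wild type arrays, with no overlap. Serping1, the C1 inhibitor, which acts on plasma kallikrein, rose by 0.90 (SE 0.14, limma adjusted p = 0.0164), with 8.49, 8.28 and 8.79 in knockout arrays, against 7.65, 7.35, 7.63 and 7.84 in wild type arrays. Neither passed without knockout 1, knockout 3 or wild type 1, fits in which only 13, 12 and 20 of all probe sets passed. With 1 array left out the difference ran from 1.00 to 1.27 for Serpina5 and from 0.77 to 1.02 for Serping1. Serpina3n, a serpin, differed by 0.68 (SE 0.21, limma adjusted p = 0.0779) and Spint2, a membrane protease inhibitor, by 0.21 (SE 0.08). The epidermal growth factor receptor gene Egfr differed by −0.13 at its brightest probe set, while a dimmer one, 1435888_at, differed by 0.72 (limma adjusted p = 0.0187), so its probe sets disagree.

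**Figure D5:**
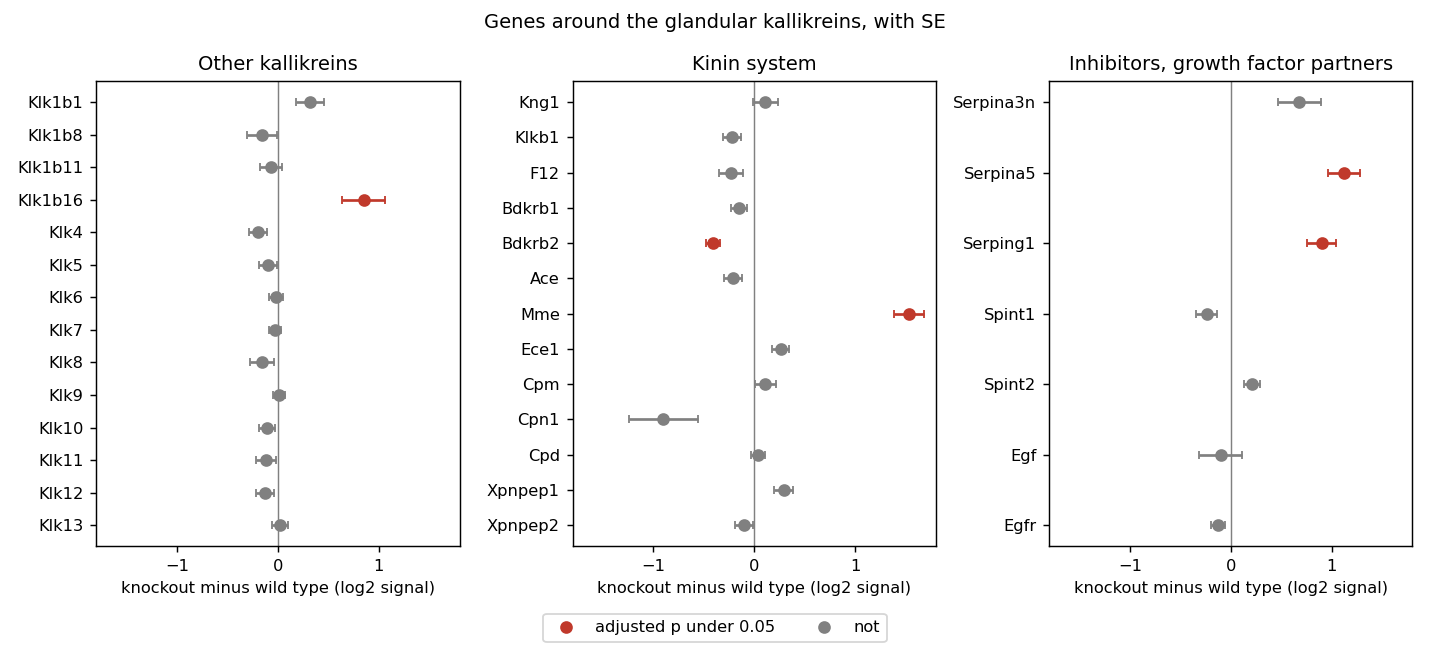
Knockout minus wild type difference in log2 signal, with bars of 1 SE, for the measured genes of 3 lists: other kallikreins, the kinin system, and inhibitors with growth factor partners. Red points passed limma's adjusted p of 0.05, and these are Klk1b16, Mme, Bdkrb2, Serpina5 and Serping1.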

How the data were processed

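Total RNA of whole testis was measured on 7 Affymetrix arrays, 3 knockout and 4 wild type, grouped by the genotype in the labels. The authors deposited 1 table of log2 signals for 45101 probe sets. The submitters' processing notes name Affymetrix Expression Console 1.4.1; how signals were summarised and normalized is not given in these sources. The log2 scale was read from the values, 1.59 to 13.92, and nothing was rescaled. After 64 controls were left out, 34945 probe sets had 1 symbol in the platform annotation, 932 several and 9160 none. Genotypes were compared over 45037 probe sets with the limma package 3.58.1 for R 4.3.3 (two-sided moderated fit by lmFit and eBayes, Benjamini-Hochberg adjustment, threshold 0.05), and the limma step was tested on simulated data. A listed gene was read by its 1-symbol probe set of highest mean signal. Differences are knockout minus wild type, with SE from the fit.

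The members and lists were chosen with earlier results of these data known. Named genes were all members, up to 6 called and 3 uncalled genes of highest signal from each list, and the 5 genes most like Klk1. Egfr's dimmer probe set, Klk1b7-ps and the marker genes named singly were picked after their values were seen. At most 9.82% of values were identical in any pair of arrays, so none was counted as a duplicate. The number of arrays limits the precision, and the median SE of a difference was 0.085. The alternatives tried were median centring, quantile normalization, filters on dim probe sets, 1 probe set per gene, array weights, limma's trend and robust options, blocks by replicate or by title number, and fits without 1 array or without 2. Sequences were aligned with Biopython 1.88.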

Additional observations from a re-analysis of the deposited data

Results flagged for a closer look

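Single wild type arrays stood apart in 4 of 26 probe sets of members and named genes, by Dixon's criterion, which sets the gap to the next array against the range of the group's 4 arrays. Chance alone marks about 1 in 20 such groups. Wild type 3 was high for Klk1, at 9.53 on 1415837_at (0.94 of the range) and 9.47 on 1448107_x_at (0.91 of the range). Both probe sets read the same transcript, so this is 1 observation. Wild type 4 was high for Klk1b27, at 8.58 (0.906 of the range). Wild type 2 was high for Klk8, at 5.34 (0.894 of the range).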

How the results depend on the processing

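The differences of the kallikrein probe sets were recomputed under 17 alternatives. Of 181 values 175 kept their sign, and the 6 that turned belong to the dim Klk1 probe set 1460050_x_at and to Klk1b26. All 181 moved by less than the within-genotype SD, but much of this was fixed in advance. The filters on dim probe sets, 1 probe set per gene and limma's trend and robust options leave a difference as it was. Leaving out 1 array cannot move it by as much as that SD. These values are therefore no measure of how firm the differences are. Counts of calls depended more on the arrays used. With 1 array left out, 12 to 2964 of all probe sets passed (13 lacking knockout 1, 12 lacking knockout 3, 20 lacking wild type 1, and 1623 lacking wild type 2), and 0 to 5 of the kallikrein probe sets, 0 to 1 of the other kallikreins, 0 to 4 of the kinin system genes and 0 to 2 of the inhibitors and partners. Without both knockout 3 and wild type 4, 3 probe sets passed in all, 0 of the members, 0 of the other kallikreins, 1 kinin system gene and 0 inhibitors and partners. With only the 22525 brightest probe sets, which leaves fewer to adjust over, 7 member probe sets passed, and with only the 30027 brightest 1 kinin system gene did. At the same number of arrays the counts thus differed widely. Lacking knockout 2, 2964 passed, against 13 lacking knockout 1 and 12 lacking knockout 3. Lacking wild type 3, 2896 passed, against 20 lacking wild type 1. The cause was not tested.

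For arrays of the same replicate number, correlations of deviations were 0.141, 0.080 and −0.113 for numbers 1, 2 and 3. The pairs of numbers 1 and 2 also lie within title-number groups, while that of number 3 does not. With the replicate block, 3066 probe sets passed in all, with 5 of the members, 1 other kallikrein, 3 kinin system genes and 2 inhibitors and partners. Within the title-number groups these correlations were 0.080 to 0.258, against at most 0.051 outside them.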

Other observations

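Klk1b7-ps, a kallikrein pseudogene of the same cluster, was picked after its values were seen. Its log2 signals were 4.69, 6.37 and 6.72 in knockout arrays, against 6.70, 6.79, 5.24 and 6.70 in wild type arrays. Knockout 1 and wild type 3 thus lay at least 1.13 below the other 5 arrays, the largest such gap among all 45037 probe sets, with 0.63 the next. A gap over 0.4 with these arrays low was found for 6 probe sets and with them high for 2. Knockout 1 and wild type 3 were also highest within their genotypes for Klk1 at 1415837_at and 1448107_x_at, which read the same transcript, but not together at the other Klk1 probe sets. Klk1b8 had a smaller gap the same way, 0.22. Since the arrays were picked from Klk1b7-ps itself, these values are a description with no test.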
